A study of Homo sapiens with 6 samples.

Results

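The metallothionein and zinc response genes examined here were 10 genes of the deposited expression table: the metallothioneins MT1A, MT1E, MT1F, MT1G, MT1H, MT1M, MT1X and MT2A, the transcription factor gene MTF1 and the zinc exporter gene SLC30A1. They were found by gene name among 58735 genes. The members come from HCT116SCs, stem-like cells sorted as CD44+CD326+ from the colorectal cancer line HCT116 and grown as spheres in serum-free medium with EGF, bFGF and B27. The cells were transfected by liposome with negative control siRNA (NC, genotype label WT, n = 3 libraries) or PSCA siRNA (siPSCA, genotype label PSCA knockdown, n = 3 libraries), and RNA was taken 48 h later. Both groups are a single sorted line, neither an untransfected nor a reagent-only group was analysed here, and the labels list 3 PSCA siRNA sequences without saying which was used for sequencing.

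Metallothioneins are small cytosolic proteins rich in cysteine whose sulfur atoms hold zinc, copper and cadmium, and they buffer free zinc in the cell. MTF1, a zinc finger protein that senses zinc, binds metal response elements in the promoters of metallothionein genes and of SLC30A1 and raises their transcription when zinc is in excess. SLC30A1 (also called ZnT1) carries zinc out across the plasma membrane. In colonic epithelium the metallothionein genes are known to be expressed at a basal level and to be induced by metals, glucocorticoids and oxidative stress.

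In GRCh38, the build of the table, all 8 metallothionein members lie in a cluster on chromosome 16, from MT2A at 56608199 to 56609497 to MT1X at 56682424 to 56684196, with MT1E at 56625475 to 56627112 and MT1F at 56657694 to 56660698 between them. MTF1 lies on chromosome 1 from 37809567 to 37859620 and SLC30A1 on chromosome 1 from 211571568 to 211578742, both on the minus strand. The principal transcript of each metallothionein member in GENCODE release 29 has 3 exons and 183 coding bases, 61 codons of which 20 (32.8%) are cysteine codons, against 21 of 753 in MTF1 and 18 of 507 in SLC30A1. The coding sequences of the metallothioneins with reads are shown because their likeness bears on how reads can be told apart. Capitals mark the in-frame cysteine codons, and the stop codon is left out.
MT2A coding: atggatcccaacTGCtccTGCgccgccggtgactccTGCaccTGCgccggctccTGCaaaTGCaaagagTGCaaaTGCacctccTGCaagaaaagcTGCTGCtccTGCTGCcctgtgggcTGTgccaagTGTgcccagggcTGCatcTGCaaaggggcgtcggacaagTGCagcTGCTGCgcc
MT1E coding: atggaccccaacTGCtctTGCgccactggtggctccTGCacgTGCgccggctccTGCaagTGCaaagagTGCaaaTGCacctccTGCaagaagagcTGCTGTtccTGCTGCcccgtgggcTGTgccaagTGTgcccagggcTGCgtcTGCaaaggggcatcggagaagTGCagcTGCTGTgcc
MT1X coding: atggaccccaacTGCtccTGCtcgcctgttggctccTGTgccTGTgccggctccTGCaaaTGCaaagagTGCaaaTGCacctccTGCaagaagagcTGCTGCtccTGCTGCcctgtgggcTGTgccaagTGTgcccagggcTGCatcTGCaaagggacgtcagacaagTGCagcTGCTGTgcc
MT1F coding: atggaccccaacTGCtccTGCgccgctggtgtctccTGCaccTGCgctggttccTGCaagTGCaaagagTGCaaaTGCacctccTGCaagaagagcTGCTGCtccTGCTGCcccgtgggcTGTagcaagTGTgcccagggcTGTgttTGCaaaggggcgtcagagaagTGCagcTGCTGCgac

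The coding sequences of these 4 genes were identical at 162 bases (88.5%, MT1F and MT1X) to 169 bases (92.3%, MT1X and MT2A, and MT1E and MT2A) of 183. Over whole transcripts, 45.1% of the 401 windows of 50 bases in the MT1X transcript also occurred in transcripts of other genes, against 5.34% in MT1E, 4.88% in MT2A and 3.59% in MT1F. With windows of 100 bases, these shares were 19.1% in MT1X and 0% in the other 3. The windows of 100 bases that MT1X shared all lay in AC026461.1. The exons of AC026461.1 cover 321 of the 1773 exonic bases of MT1X (18.1%), and it has 0 reads in all 6 libraries. Neither the read length nor the treatment of reads that fit several genes is given in the sources used here, so the level of MT1X is the least certain of the 4, and the part of shared reads in its difference between groups was not tested.

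RefSeq start sites with sequence before them (GRCh38.p14) were at hand for 5 of the 10 members, MT2A, MT1X, MT1H, MTF1 and SLC30A1. The 250 bases before the start of MT2A (56608334 to 56608583 of chromosome 16, plus strand), MT1X (56682220 to 56682469, plus strand) and MT1H (56669564 to 56669813, plus strand) are shown for the metal response element core. This was searched as TGCACNC or TGCGCNC on both strands, and capitals mark each match. The RefSeq start of MT2A (56608584) lies inside the gene as GENCODE places it (from 56608199), so the MT2A window is upstream of the RefSeq start but within the GENCODE gene, and the MT1X window likewise reaches past the GENCODE start (56682424).
MT2A promoter: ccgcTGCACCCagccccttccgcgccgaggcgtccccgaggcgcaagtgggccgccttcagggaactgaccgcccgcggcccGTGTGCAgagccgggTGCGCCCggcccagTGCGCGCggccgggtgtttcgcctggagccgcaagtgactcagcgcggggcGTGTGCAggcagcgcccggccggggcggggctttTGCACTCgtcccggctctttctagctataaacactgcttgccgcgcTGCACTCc
MT1X promoter: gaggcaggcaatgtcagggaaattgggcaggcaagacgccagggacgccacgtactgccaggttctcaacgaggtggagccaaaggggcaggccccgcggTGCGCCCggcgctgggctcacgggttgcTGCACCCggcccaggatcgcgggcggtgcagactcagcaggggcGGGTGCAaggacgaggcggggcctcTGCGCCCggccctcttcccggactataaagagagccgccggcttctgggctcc
MT1H promoter: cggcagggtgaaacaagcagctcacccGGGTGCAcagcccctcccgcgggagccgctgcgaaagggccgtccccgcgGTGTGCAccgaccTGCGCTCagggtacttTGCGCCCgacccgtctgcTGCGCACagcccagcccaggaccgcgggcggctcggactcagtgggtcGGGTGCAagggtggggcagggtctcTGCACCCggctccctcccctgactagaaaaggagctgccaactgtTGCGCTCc

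These windows held 7 matches for MT2A, 4 for MT1X and 8 for MT1H, no match overlapping another. SLC30A1 had 1 match and MTF1 had 0. RefSeq places the start of SLC30A1 (211579161, minus strand) upstream of the GENCODE start (211578742). The bases between these 2 starts were not searched. Of 35116 windows of the same length, 24.8% held at least 1 match, 0.37% at least 4, 0.0313% at least 7 and 0.0171% at least 8. A match is a run of letters, not an observed binding site, and 0 matches says only that these letters are not in that window.

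Reads on genes ranged from 16099716 to 17302219 per library, and a single read on a gene model of 1 kilobase gave an FPKM of 0.0549 to 0.0595. PSCA, the targeted gene, had 4, 12 and 15 reads in NC 1 to 3 and 9, 9 and 7 in siPSCA 1 to 3, so its reads do not tell the groups apart. Of 8 epithelial and sort markers, 7 were found in all libraries with a mean FPKM of at least 1. The summed FPKM of all 8 was 807 to 890. VIL1 had 1, 2 and 0 reads in NC 1 to 3 and 3, 5 and 1 in siPSCA 1 to 3. Past the adjusted p threshold of 0.05 (limma), siPSCA had more of 3 of these 7 and less of 2. Over all tested genes, 26.6% passed as higher and 24.2% as lower. The log2 differences were 0.70 for CDX2, 0.25 for KRT19, 0.22 for KRT8, -0.44 for the sort marker CD44 and -0.60 for CDH1. EPCAM, which encodes CD326, was at -0.16 and did not pass. With the GC and length trend removed, CDX2 (0.38), CD44 (-0.26) and CDH1 (-0.62) still passed, KRT8 and KRT19 did not (-0.03 and -0.25), and KRT18 did (-0.43). The part of this in the members' differences was not tested. All 5 leukocyte markers together gave a summed FPKM of 0.0761 to 0.377, and CD3E and CD68 had no read. The 3 endothelial markers gave 0.120 to 0.251. The 5 fibroblast markers gave 3.40 to 5.67 in NC and 6.06 to 6.61 in siPSCA, nearly all of it COL1A1, with LUM at 0 in every library. COL1A1 had a log2 difference of 0.35 and did not pass (adjusted p = 0.111 from limma). With the GC and length trend removed it was at -0.04. The difference of NC 3 from the mean of NC 1 and NC 2 followed GC content (Spearman correlation across genes -0.56). The same value was not taken for the other libraries. The fold changes of all tested genes followed GC content as well (0.664). Genes are not independent replicates, and the part of library preparation in this was not tested. The titles of siPSCA 2 and siPSCA 3 carry another number after HCT than their cell line field. No label ties the libraries to separate cultures, so p-values measure the spread between these libraries, which may be technical.

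Of the 10 members, 6 had reads and passed the mean FPKM minimum of 1, namely MT2A, MT1E, MT1X, MT1F, MTF1 and SLC30A1. MT1A, MT1G, MT1H and MT1M had 0 reads in every library. By the floor of 3 reads, a count of 0 allows an FPKM of up to 0.175 to 0.451 in these 4 genes, depending on library and gene length, and the limit covers counting error only. The levels of the expressed members are drawn for each library in the plot of FPKM by gene.

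**Figure D1:**
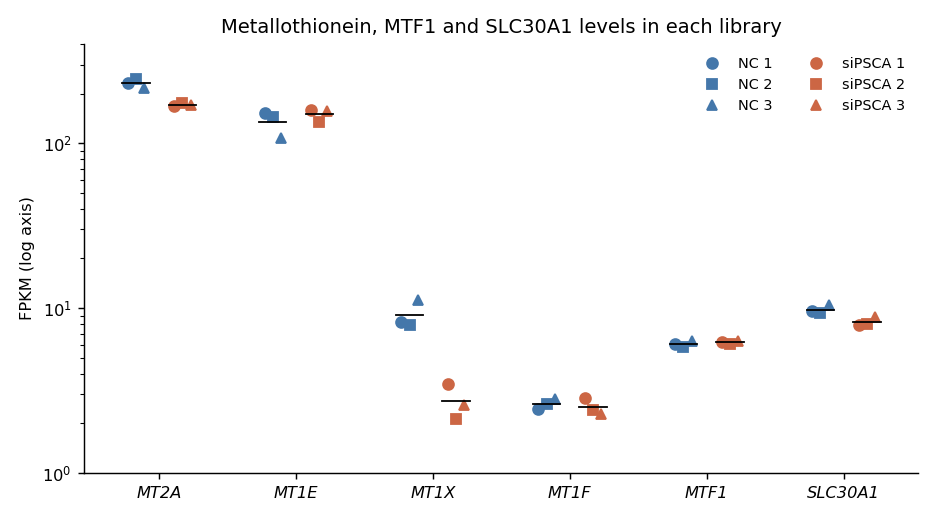
FPKM (log axis) of the 6 members with reads, with a point for each library, NC in blue and siPSCA in orange, and a line at the group mean. MT1X lies between 7.93 and 11.2 in NC and between 2.13 and 3.47 in siPSCA, whereas the MT1E and MTF1 groups overlap.

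MT2A and MT1E made up nearly all of the summed metallothionein FPKM, 95.9% to 97.4% in NC and 98.1% to 98.6% in siPSCA. In NC the mean FPKM was 232 for MT2A, 134 for MT1E, 9.75 for SLC30A1, 9.11 for MT1X, 6.06 for MTF1 and 2.61 for MT1F. SLC30A1 (9.33 to 10.4) and MT1X (7.93 to 11.2) overlapped in NC, while the other neighbours in this order did not. These FPKM values divide by the length of the whole gene model, which includes retained introns and is 3.94 times the principal transcript of MT1X, 2.74 times that of MT1F, 1.65 times that of MT2A and 1.49 times that of MT1E. Per principal transcript, the NC level was 383 ± 24.5 (SD, n = 3) for MT2A, 201 ± 35.7 for MT1E, 35.9 ± 7.15 for MT1X and 7.15 ± 0.507 for MT1F. These levels take every read of a gene to lie on its principal transcript, which was not tested. Counted from the later RefSeq start, the same transcripts of MT2A and MT1X would be shorter and their levels higher. For a single gene, lengths cancel in the ratio of the group means of FPKM. They do not cancel fully once 1 is added before the log, as in the main test. There MT1X had a log2 difference of -1.44, against -1.72 with a pseudocount of 0.1. Nor do they cancel in summed FPKM or shares of it, where MT1X and MT1F would weigh more per principal transcript.

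The comparison of siPSCA with NC asks what PSCA siRNA changes in these cells. Among the members, MT1X and MT2A were lower in siPSCA, MT1E, MT1F and MTF1 did not pass the test, and SLC30A1 was lower by a small amount that depended on the processing. Thus 3 of the 6 tested members had an adjusted p under 0.05 from limma, all of them lower in siPSCA. Over all 13796 tested genes 50.7% passed, 24.2% lower and 26.6% higher, so the share of members that passed lay at the background. The shares over all tested genes were taken in this fit only, so counts given for other settings have no such share beside them. The median log2 difference was -0.13 over the 6 members and 0.01 over all tested genes. The groups did not overlap for 3 of the 6 members, against 64.5% of all tested genes.

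MT1X, a metallothionein isoform induced by metals, had an FPKM of 8.19, 7.93 and 11.2 in NC 1 to 3 and of 3.47, 2.13 and 2.57 in siPSCA 1 to 3. Every siPSCA library lay below every NC library, and NC 3 was the highest. The mean went from 9.11 ± 1.81 (SD, n = 3) to 2.72 ± 0.683 (SD, n = 3), which is 0.299 times the NC level. On the log2(FPKM + 1) scale, which understates changes of low genes, the log2 difference (siPSCA minus NC) was -1.44 (standard error, SE, 0.17, 95% confidence interval -1.86 to -1.03, adjusted p = 0.00178 from limma). Among the 13796 tested genes, ordered from the most negative value, MT1X was number 61. The reads behind it numbered 244, 245 and 342 in NC and 104, 67 and 83 in siPSCA, and limma-voom on these reads gave -1.77. Without NC 3 the log2 difference was -1.30 (adjusted p = 0.00123 from limma).

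MT2A, the isoform with the highest level and a standard readout of metal and glucocorticoid exposure, had an FPKM of 232, 246 and 216 in NC and of 168, 176 and 170 in siPSCA. The groups did not overlap, and the siPSCA libraries lay close together. The mean went from 232 ± 14.8 to 172 ± 3.90 (SD, n = 3 each), 0.741 times the NC level. This was a log2 difference of -0.43 (SE 0.06, 95% confidence interval -0.57 to -0.29, adjusted p = 0.00263 from limma).

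MT1E, the second metallothionein by level, had an FPKM of 152, 145 and 107 in NC and of 160, 134 and 157 in siPSCA. The groups overlapped, with NC 3 the lowest library. Its log2 difference was 0.17 (SE 0.14, 95% confidence interval -0.18 to 0.52, adjusted p = 0.36 from limma) and 0.02 without NC 3. MT1F had 2.43, 2.61 and 2.80 in NC and 2.85, 2.41 and 2.27 in siPSCA, a log2 difference of -0.04 (95% confidence interval -0.26 to 0.17, adjusted p = 0.702 from limma). It passed the threshold only once the GC and length trend was taken out from each library, where the value was -0.37 (adjusted p = 0.0472 from limma).

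MTF1, the zinc sensor, had an FPKM of 6.06, 5.83 and 6.29 in NC and of 6.20, 6.04 and 6.32 in siPSCA. The libraries of both groups were interleaved, with a log2 difference of 0.03 (95% confidence interval -0.10 to 0.15, adjusted p = 0.708 from limma) that was -0.02 on TPM and -0.03 after median centring. SLC30A1, the exporter that MTF1 controls, had 9.55, 9.33 and 10.4 in NC and 7.87, 7.98 and 8.84 in siPSCA. Its groups did not overlap, and the mean went from 9.75 ± 0.557 to 8.23 ± 0.534 (SD, n = 3 each), with a log2 difference of -0.22 (SE 0.07, adjusted p = 0.0348 from limma). This gene has a GC content of 38.0%, and once the GC and length trend was taken out the value was 0.06 (adjusted p = 0.3 from limma). It also missed the threshold without NC 1, NC 2, siPSCA 1 or siPSCA 2 (adjusted p = 0.054 to 0.115 from limma), though not without NC 3 or siPSCA 3. Exact permutation tests of the FPKM values (2-sided) gave p = 0.1, the smallest that 3 against 3 libraries allow, for MT1X, MT2A and SLC30A1, and p = 0.5 to 0.7 for the other 3 members tested.

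**Figure D2:**
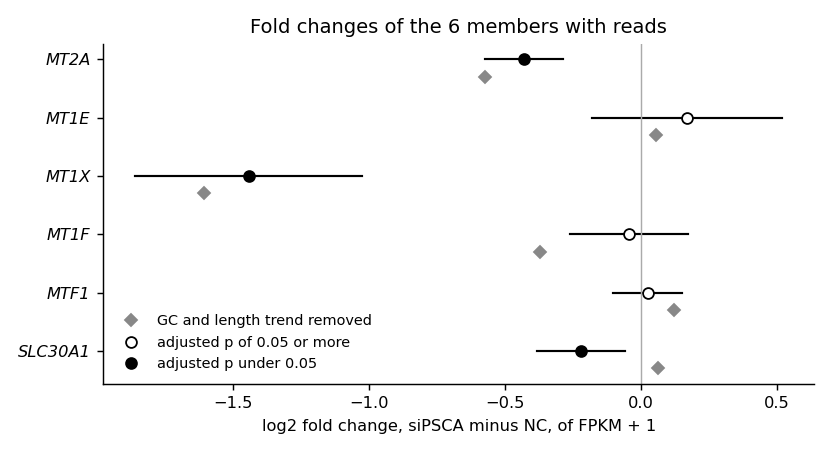
log2 difference of FPKM + 1, siPSCA minus NC, of the 6 members with reads (circles, filled where the adjusted p is under 0.05) with 95% confidence intervals, and the value after removal of the GC and length trend (grey diamonds). MT1X is at -1.44 and MT2A at -0.43, both further below 0 after removal, while SLC30A1 moves from -0.22 to 0.06.

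The isoforms were also compared within each library, where depth cancels. These ratios were chosen after the values were seen. Per 1000 reads of MT2A there were 48.1, 44.0 and 70.7 reads of MT1X in NC and 28.1, 16.5 and 20.6 in siPSCA. Per 1000 reads of MT1E there were 91.0, 92.4 and 176 in NC and 36.6, 26.7 and 27.6 in siPSCA. No siPSCA ratio reached the lowest NC ratio. The log2 ratio of the FPKM of MT1X to that of MT2A differed by -1.32 (-4.68 ± 0.363 in NC and -6.01 ± 0.386 in siPSCA, SD, n = 3 each, exact permutation p = 0.1) and that of MT1X to MT1E went from -3.89 ± 0.543 to -5.81 ± 0.250 (SD, n = 3 each, exact permutation p = 0.1). The log2 ratio of MT2A to MT1E was 0.80 ± 0.201 in NC and 0.20 ± 0.172 in siPSCA (SD, n = 3 each, exact permutation p = 0.1), and 0.1 is the smallest p this design allows. MT1E made up 31.8% to 38.4% of the summed FPKM in NC and 42.6% to 47.7% in siPSCA.

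**Figure D3:**
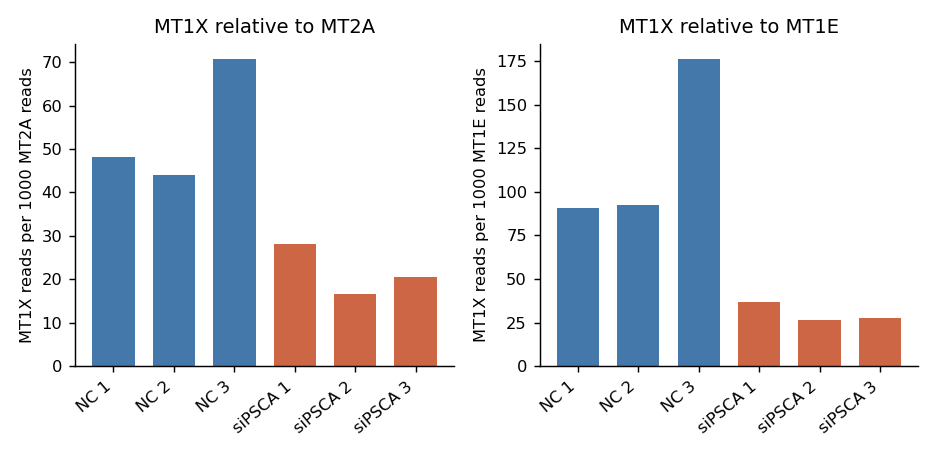
Reads of MT1X per 1000 reads of MT2A (left) and per 1000 reads of MT1E (right), a bar for each library, NC in blue and siPSCA in orange. All siPSCA bars are below all NC bars, at most 28.1 against at least 44.0 on the left and at most 36.6 against at least 91.0 on the right.

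The summed FPKM of the metallothionein members was 395, 401 and 337 in NC and 334, 314 and 332 in siPSCA, and NC 3 lay just above the highest siPSCA library. The ratio of the group means was 0.866 (378 ± 35.0 in NC and 327 ± 10.9 in siPSCA, SD, n = 3 each). In bulk RNA, fewer cells that express a gene and less RNA per cell cannot be told apart.

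Outside the members, the table holds 13 other metallothionein genes and pseudogenes, of which 7 had reads. MT3, MT4, MT1B, MT1CP, MT1IP and MT1HL1 had 0 reads in all libraries. MT2P1 and MT1DP reached the FPKM minimum and did not pass the test (adjusted p = 0.369 and 0.949 from limma). MT1XP1, a processed copy of MT1X on chromosome 1, had 2, 3 and 4 reads in NC and 0, 0 and 2 in siPSCA (adjusted p = 0.0923 from limma over all genes with a read). MT2P1 had 19, 5 and 6 reads against 4, 10 and 3. MT1P1, MT1P3, MT1JP and MT1L had 1 to 11 reads summed over NC and 0 to 5 over siPSCA.

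Protein-coding genes within 500000 bases of the metallothionein cluster were examined because they share its chromosomal region. Of 12 such genes, 9 were tested and 8 passed the adjusted threshold, 4 higher and 4 lower in siPSCA, against 50.7% of all tested genes. The largest fall was that of HERPUD1, which serves the removal of misfolded proteins from the endoplasmic reticulum, from 22.4 ± 0.841 to 6.42 ± 0.205 (SD, n = 3 each), a log2 difference of -1.65 (adjusted p = 6.24e-05 from limma). BBS2, of the primary cilium, and FAM192A had log2 differences of -0.28 and -0.22. With the GC and length trend removed, 6 neighbours passed, and BBS2 (0.00) and NUDT21 (0.11, against -0.20 before) no longer did. NLRC5, an activator of MHC class I genes, rose by 0.77 and OGFOD1, a prolyl hydroxylase, by 0.42. The count of neighbours past the threshold was 5 without NC 2, siPSCA 1 or siPSCA 2.

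**Figure D4:**
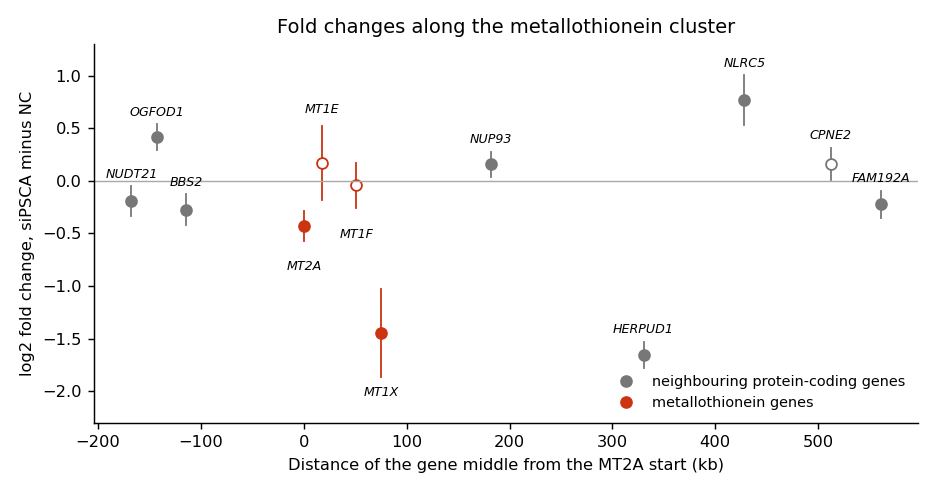
log2 difference of FPKM + 1, siPSCA minus NC, with 95% confidence intervals against the distance of each gene's middle from the MT2A start in kilobases, metallothioneins in red and neighbouring protein-coding genes in grey, filled where the adjusted p is under 0.05. MT1X (-1.44) and HERPUD1 (-1.65) are the lowest points, and NLRC5 is the highest at 0.77. Of the 9 tested neighbours, 8 are drawn.

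Zinc transporters of the SLC30 family mostly move zinc out of the cytosol, and those of the SLC39 family move it in. Together they set the zinc pool that metallothioneins buffer. Of 9 further SLC30 genes, 6 were tested and 2 passed, both lower, against 50.7% of all tested genes past the threshold and 24.2% lower. SLC30A5, which loads zinc into the secretory pathway, fell from 11.2 ± 0.512 to 8.85 ± 0.26 (SD, n = 3 each). SLC30A7, which acts in the same route, fell from 8.59 ± 0.129 to 6.80 ± 0.448 (SD, n = 3 each). Their log2 differences were -0.31 and -0.30 (adjusted p = 0.00559 and 0.00841 from limma). After removal of the GC and length trend these were -0.05 and 0.06, neither past the threshold, while SLC30A6, at 0.07 before and not past it, passed as higher (0.36). The median over the 6 was -0.11.

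Of 14 SLC39 genes, 10 were tested and 5 passed, 2 higher and 3 lower, a share at the background. The lower ones were SLC39A10, a plasma membrane importer, from 13.2 ± 0.578 to 7.03 ± 0.339 (log2 difference -0.82), SLC39A8, which carries zinc and manganese, from 12.7 ± 0.695 to 8.02 ± 0.480 (-0.60), and SLC39A9 from 20.5 ± 0.412 to 14.9 ± 0.331 (-0.44, SD and n = 3 throughout). SLC39A3 and SLC39A4, importers that respond to zinc supply in the intestine and other tissues, rose by 0.75 and 0.65. After removal of the GC and length trend the 3 lower genes still passed at -0.49, -0.47 and -0.24, SLC39A3 passed at 0.38, and SLC39A4 was at 0.40 with an adjusted p of 0.0518 from limma. SLC39A7, at 0.09 before and not past the threshold, then passed at -0.17. The median over the 10 was -0.0015.

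**Figure D5:**
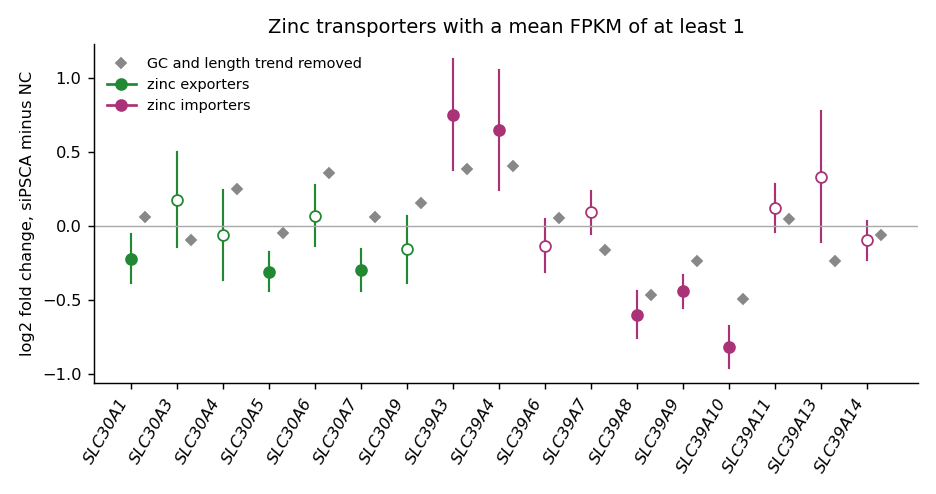
log2 difference of FPKM + 1, siPSCA minus NC, of zinc exporters (green, SLC30A1 included) and importers (purple) with 95% confidence intervals, filled where the adjusted p is under 0.05, and the value after removal of the GC and length trend (grey diamonds). SLC39A10 is lowest at -0.82 and SLC39A3 highest at 0.75, and the exporters lie between -0.31 and 0.18.

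Copper is another metal that metallothioneins bind. Of 11 copper-handling symbols (12 table entries, since SCO2 has 2 identifiers), 9 genes were tested and 3 passed, against 50.7% of all tested genes. These were SOD1, the copper and zinc superoxide dismutase, at 0.35, COMMD1, which regulates copper transporters, at 0.19 and the copper importer SLC31A1 at -0.29. Their adjusted p-values from limma were 0.0212, 0.0475 and 0.00755, and the median over the 9 was 0.12. Only 1 of the 9 passed without siPSCA 1 or without siPSCA 2. With the GC and length trend removed, SOD1 (0.17) and COMMD1 (0.15) missed the threshold, SLC31A1 kept it (-0.16), and CCS (-0.36) and ATOX1 (0.31) came to pass it.

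Of 11 other transcripts listed here as metal-responsive, 10 were tested and 9 passed, 7 higher and 2 lower, with a median of 0.67. The groups did not overlap for 9. Over all tested genes, 50.7% were past the threshold and 64.5% without overlap. Whether the listed transcripts respond to metals in these cells was not tested. The count was 5 without siPSCA 1 and 5 without the FPKM minimum. The largest rises were those of HSPA1B (1.34), an inducible HSP70 that shares nearly identical sequence with HSPA1A so that their reads may be split, KEAP1 (0.98), which restrains the oxidative stress factor NRF2, and SELENOW (0.76), a selenoprotein. TXNRD1, a thioredoxin reductase, fell from 70.4 ± 0.639 to 39.8 ± 1.01 (SD, n = 3 each, log2 difference -0.81, adjusted p = 0.00025 from limma), and SLC7A11, the cystine importer, had a log2 difference of -0.17. HMOX1, heme oxygenase, had 23.4 ± 3.21 and 23.7 ± 2.29 (SD, n = 3 each, adjusted p = 0.873 from limma). After removal of the GC and length trend HMOX1 was at -0.32 and past the threshold, SLC7A11 passed in the opposite direction at 0.21, and HSPA1A, at 0.72 and past the threshold before, was at 0.30 and did not pass.

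Of 10 transcripts known to respond to glucocorticoids, which also induce MT2A, 9 were tested and 2 passed, against 50.7% of all tested genes. ERRFI1, a feedback inhibitor of the EGF receptor, fell from 288 ± 5.56 to 148 ± 0.368 (SD, n = 3 each), a log2 difference of -0.95 (adjusted p = 0.000125 from limma). CEBPD, a transcription factor gene with a GC content of 70.0%, had a log2 difference of 0.94, which was 0.03 after removal of the GC and length trend. FKBP5, TSC22D3 and PER1 had log2 differences of -0.10, -0.18 and 0.06 and did not pass. With the trend removed 5 of the 9 passed the threshold, namely ERRFI1 (-0.82), PER1 (-0.45, of the opposite sign to its value above), TSC22D3 (-0.37), DUSP1 (-0.23) and NR3C1 (0.22). The median over the 9 was -0.10.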

How the data were processed

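RNA of 6 libraries of HCT116SCs, 3 NC and 3 siPSCA, was sequenced as paired ends after library construction with the NEBNext Ultra RNA kit. The authors deposited FPKM values, that is, reads scaled to the length of each gene model and the size of each library. Gene lengths were those deposited. The aligner, the counting program and the use of strand are not given in the sources used here. The labels name GRCh38, and all 58735 genes stood at their GENCODE release 29 positions. FPKM times gene length gave whole reads for 100% of values (tolerance 0.01), so reads per gene could be recovered. No molecular identifiers are stated, and floors (3 reads) cover counting error only.

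The linear model of limma 3.58.1 (R 4.3.3, eBayes with a trend) was fitted to log2(FPKM + 1) of 13796 genes (mean FPKM 1 or more over the 6 libraries), with Benjamini-Hochberg adjustment over these genes. MT1XP1 and other genes under the minimum came from the same model over the 34391 genes with a read. The fit was tested on simulated reads with at most 200 changed genes and no GC trend. That test cannot show how the fit behaves under the GC trend of these data. Alternatives were a pseudocount of 0.1, no minimum, a minimum of 5, TPM, median centring, limma-voom, no variance trend, a replicate block, removal of a spline trend on GC content (from the longest GENCODE transcript, 99.97% of tested genes) and length, and leaving out each library. Promoter sequences came from RefSeq, transcripts from GENCODE. Python 3.11.15, pandas 2.3.3 and matplotlib 3.10.9 were used.

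Named were all members, other metallothionein genes with reads, and from each pathway list and the cluster neighbours every gene past the threshold, or, beyond 6 such genes, the 3 largest rises and falls. A gene that this rule names among the cluster neighbours is not reported here. Genes named outside this rule, such as HMOX1, FKBP5, marker genes, metallothionein genes without reads and genes that passed only with the GC and length trend removed, were chosen after their values were seen. Members and lists were chosen with earlier results of these data known.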

Additional observations from a re-analysis of the deposited data

How the results depend on the processing

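The falls of MT1X (log2 fold change -1.77 to -1.30) and MT2A (-0.57 to -0.38) kept their direction and stayed past the threshold in all 16 alternatives run, and MT1E (0.02 to 0.26) stayed higher without passing in the same 16. With the replicate block MT1X was at -1.44 and MT2A at -0.43, and the block, added alone, changed no call among the members. Deviations of same-numbered libraries correlated at 0.0955, 0.0132 and 0.134, and 4 of 6 libraries correlated best with their own number. These values do not decide whether the numbers mark pairs. The main model left the libraries unpaired, and the replicate block gives the alternative. SLC30A1 was at 0.06 after removal of the GC and length trend and at 0.06 with the replicate block added, and it did not pass without the FPKM minimum (-0.22, adjusted p = 0.0729 from limma). MTF1 was at -0.02 on TPM and at -0.03 after median centring. Leaving out single libraries gave 0.00 to 0.05 for MTF1, -0.11 to 0.01 for MT1F, -0.27 to -0.18 for SLC30A1, 2 to 3 members past the threshold, 5 to 8 cluster neighbours, and a ratio of summed metallothionein FPKM of 0.822 to 0.893. After removal of the GC and length trend 3 members passed again, with MT1F in place of SLC30A1, and the replicate block then left 2. Over all 16 alternatives the number past the threshold ranged from 1 to 3 for copper handling (1 with the replicate block, on TPM and after median centring), from 1 to 5 for the glucocorticoid list, from 5 to 9 for the other metal-responsive transcripts, from 1 to 2 for the zinc exporters and from 4 to 6 for the importers. No share over all tested genes was taken in these alternatives, so whether the lists moved more than other genes is not known. The cause of these differences was not tested. The metallothionein pseudogenes had at most 19 reads in a library, which limits what differences could be detected.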
